A study of Mus musculus with 2 samples.

Results

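ATP-binding cassette (ABC) transporters are membrane proteins that use ATP to move a substrate across a membrane, and the liver relies on them to make bile and to export sterols. Members in the canalicular membrane of the hepatocyte pump bile salts, phospholipid, sterols and conjugated pigments into bile, while others load lipid onto lipoproteins, return conjugates to blood or serve mitochondria, peroxisomes and lysosomes. The ABCE and ABCF proteins share the ATP-binding cassette but have no membrane-spanning part and act on ribosomes.

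The ABC transporter genes described here were all symbols of the deposited expression table that consist of Abc, a letter from a to g and a number, without pseudogenes, which gave 50 of 24054 genes. Liver RNA came from male C57BL/6 mice aged 8 to 12 weeks that were either wild type (WT) or Pgrmc1 KO (Pgrmc1 -/Y), a deletion of exons 1 and 2 made in the whole body by Sox2-Cre. The labels give the strain as C57BL/6, and per the study's methods the floxed allele was made in C57BL/6N. Equal masses of RNA (2.5 μg per mouse) were pooled within a genotype, so each genotype is 1 library, and no difference below has a replicate check or a p-value. Levels are given in TPM, a gene's length-corrected share of the transcript pool, and changes as log2((KO TPM + 1)/(WT TPM + 1)). Because 1 TPM is added, this scale makes the change of genes with low levels look smaller. A second deposited table gives the authors' mean of each library, an estimated read number divided by a size factor, and its low values fall mainly on multiples of a fixed step, taken as 1 read, which gives an estimated 22086692 reads in KO and 29710419 in WT. From these reads, 95% Clopper-Pearson intervals of the log2 ratio of the authors' means were computed, which cover counting error only and not differences between mice.

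The libraries followed their labels, since Pgrmc1 stood at 0.68 TPM in KO against 949.49 TPM in WT, a change of -9.14. The hepatocyte markers Alb, Ttr, Apoa2 and Serpina1c lay between 5678.11 and 49729.07 TPM in both libraries, with changes from -0.09 to 0.01. Over the 11623 genes whose mean of both libraries reached 1 TPM (the genes tested), the median change was -0.01, and the 5th and 95th percentiles were -0.27 and 0.27.

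Abcg5 and Abcg8 encode the partner proteins of the sterol exporter that secretes cholesterol and plant sterols into bile. The genes lie head to head on chromosome 17 of GRCm38 (mm10), Abcg5 on the minus strand at chr17:84658174-84683011 and Abcg8 on the plus strand at chr17:84676302-84700333. RefSeq start sites of Abcg5 (84683011) and Abcg8 (84683121) are 110 bases apart, and a second annotated start of Abcg8 lies within Abcg5. The 109 bases between these start sites are shown because the transcripts on either side had nearly the same change (given below). They are written 5′ to 3′ on the plus strand, from RefSeq GRCm38.p6, at chr17:84683012-84683120. Capitals mark matches to AGATAA, a form of the site bound by GATA factors, or to TATAAA, the TATA box, on either strand.
Abcg5-Abcg8 stretch: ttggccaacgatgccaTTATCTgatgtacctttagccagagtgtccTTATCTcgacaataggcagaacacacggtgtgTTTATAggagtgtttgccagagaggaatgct

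Positions are counted from the Abcg8 start site as 0. Both AGATAA matches in the stretch (at -93 and -63) and the TATAAA match (at -31) read on the minus strand, the strand of Abcg5. Another AGATAA match, at -127 and outside the printed stretch, reads on the plus strand. AGATAA was found in 11.2% and TATAAA in 13.6% of 32851 RefSeq promoter windows, each of 250 bases before and 50 after a start site, so neither is rare.

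The 150 bases before the start sites of Abcb11 and Abcc2, the bile salt and conjugate pumps of the canaliculus, are printed for comparison, each 5′ to 3′ on the strand of its gene. Capitals mark AGGTCA on either strand, the hexamer that nuclear receptors recognise, which 16.3% of all windows hold. Among the ABC genes it was in 7 of 45 windows, those of Abcb11, Abcc2, Abcb6, Abcc10 and Abcg2. Abcb11 and Abcc2 had changes below 0, and Abcb6, Abcc10 and Abcg2 had changes above 0 (given below). The Abcb11 bases are chr2:69342617-69342766 on the minus strand, with the match at -56, and the Abcc2 bases are chr19:43782158-43782307 on the plus strand, with the match at -49.
Abcb11: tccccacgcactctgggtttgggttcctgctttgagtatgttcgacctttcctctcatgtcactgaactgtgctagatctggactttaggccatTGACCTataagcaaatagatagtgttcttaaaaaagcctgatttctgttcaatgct
Abcc2: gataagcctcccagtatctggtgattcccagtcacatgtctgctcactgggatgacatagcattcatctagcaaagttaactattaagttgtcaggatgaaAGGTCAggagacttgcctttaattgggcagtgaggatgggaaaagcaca

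Paired forms of AGGTCA were also searched on both strands of the 45 windows of 38 ABC genes that had one. Only exact matches were counted. The inverted repeat spaced by 1 base was in 0 of the 45 windows and in 0.00913% of all windows. The bile acid receptor FXR binds sites of this form. The Abcb11 bases above hold it with 1 letter changed (aggccatTGACCT). The direct repeat spaced by 4 bases, the form bound by the oxysterol receptors LXR, was likewise in 0 of the 45 and in 0.0152% of all. At such shares 45 windows would hold fewer than 1 exact match. The counts of 0 therefore say nothing about inexact sites in these genes. Both repeats contain AGGTCA and so overlap with its matches. The E-box CACGTG, bound by clock factors, was in 6 of the 45 windows, those of Abca1, Abca15, Abca8a, Abca8b, Abcc4 and Abcf1, and in 7.15% of all windows.

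Transcripts of 35 of the 50 ABC genes reached a mean of 1 TPM. The other 15 lay under it, 11 of them under 0.2 TPM in both libraries. Summed over all 50 genes, ABC transcripts amounted to 1988.24 TPM in KO against 2066.74 TPM in WT, which is 0.962 times as much. The top 5, Abcd3, Abcb11, Abcc2, Abca6 and Abcb4, made up 58.8% of that sum in KO and 59.6% in WT. Together with Abcc3 these were the 6 genes above 100 TPM in both libraries, 18 had a mean from 10 to 100 TPM, and 11 had one from 1 to 10 TPM. The levels therefore spanned more than 2 orders of magnitude, and the order of the top 6 was the same in both libraries.

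**Figure D1:**
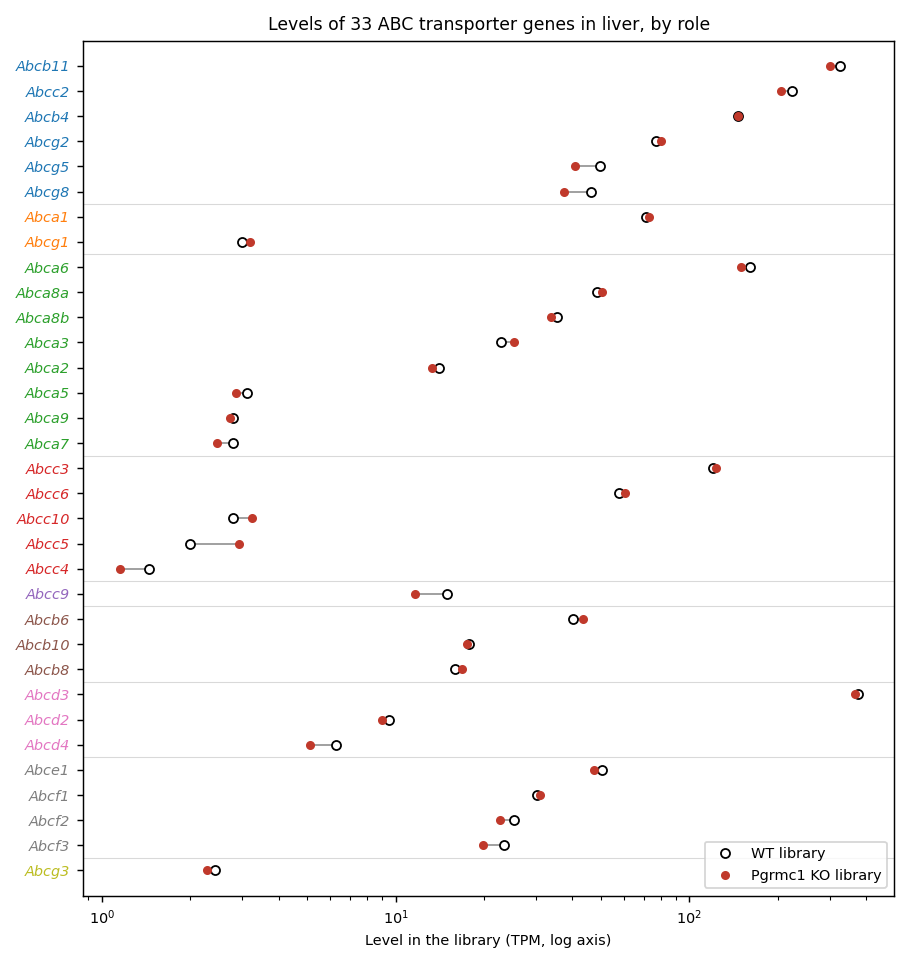
Level of 33 of the 35 ABC transporter genes that reached a mean of 1 TPM, in the WT library (open circles) and the Pgrmc1 KO library (filled circles), in TPM on a log axis, grouped by role and ordered by mean level within a group. The circles of most genes nearly coincide, from Abcd3 at 373.62 TPM in WT to Abcc4 at 1.45 TPM in WT. Abcg5, Abcg8, Abcc9, Abcc5, Abcd4 and Abcc4 show the widest gaps.

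No ABC gene passed the fold thresholds for a rise (at least 1.4-fold) or a fall (at most 0.6-fold) on the log2(TPM + 1) scale. The count was 0 of 35 in each direction, while 1.21% of all 11623 genes tested passed upward and 0.301% downward, shares at which 35 genes would hold fewer than 1. Changes ran from -0.33 for Abcc9 to 0.40 for Abcc5, with a median of -0.06, and 22 of the 35 lay below 0 (62.9%, against 53.8% of all genes tested). Within the 5th to 95th percentile of all genes lay 31 of the 35; Abcc9, Abcg8 and Abcg5 lay below it and Abcc5 above it. At a threshold of 1.2-fold and its mirror, those same 4 genes passed, 1 upward and 3 downward, where 5.39% of all genes passed upward and 5.51% downward. At 2-fold and 0.5-fold none passed, where 0.387% of all genes passed upward and 0.112% downward.

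**Figure D2:**
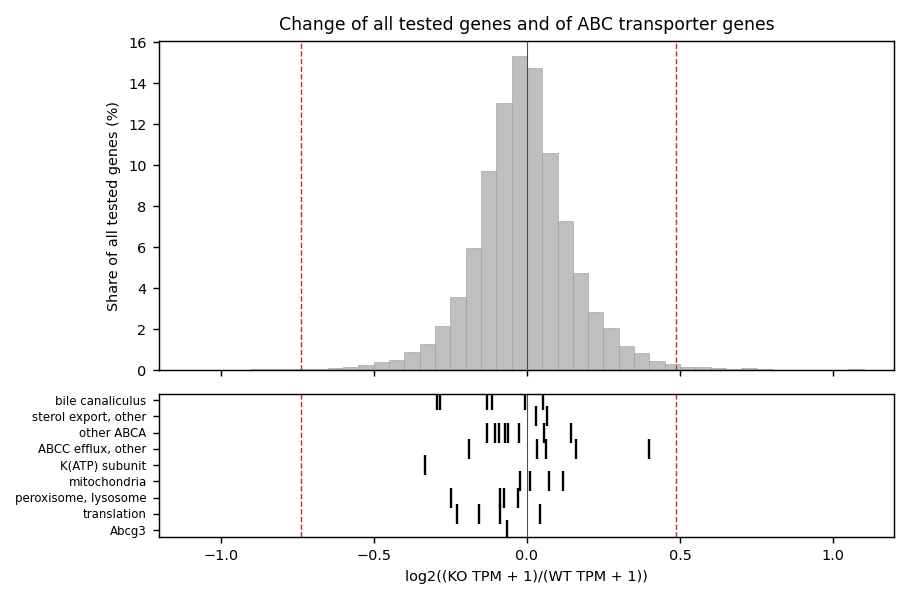
Share of all 11623 tested genes (upper panel, percent per bin of 0.05) and position of the 35 ABC genes by role (lower panel, 1 tick per gene) along log2((KO TPM + 1)/(WT TPM + 1)). Dashed lines mark 1.4-fold and 0.6-fold, and 40 genes lie beyond the axis limits of 1.2 in either direction. Every ABC tick lies between the dashed lines, from -0.33 for Abcc9 to 0.40 for Abcc5.

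For 32 of the 35 genes the whole counting interval of the ratio of means lay between 0.6-fold and 1.4-fold. The same share over all tested genes was not computed, so this count is not read as a trait of ABC genes. The interval of Abcc4 reached 0.6-fold, and those of Abcc5 and Abcc10 reached 1.4-fold, so for these 3 a change of that size was not excluded by the reads counted. Intervals lay wholly below 0 for 10 genes (28.6%, against 13.4% of all genes) and wholly above 0 for 7 (20%, against 11.7%). Some of these ended very close to 0: Abca1 and Abcc3 at 0.003, Abca8a at 0.006, Abce1 at -0.0008 and Abcd4 at -0.003. The log2 ratios of the deposited tables differed by a median of 0.011, which is more than these margins. Among genes that reached a mean of 10 TPM the shares were 9 of 24 below (37.5%, against 18.8%) and 6 of 24 above (25%, against 14.5%). Intervals narrow as reads accumulate, and the part of read number in these shares was not tested.

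**Figure D3:**
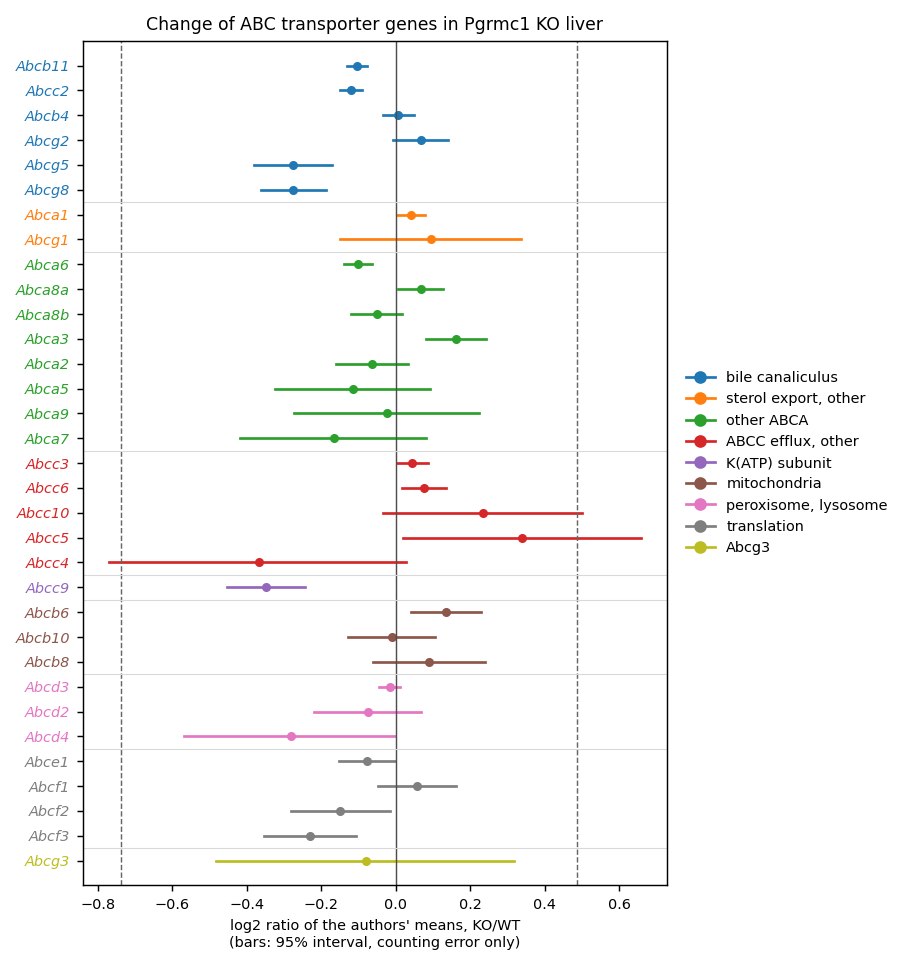
Log2 ratio of the authors' means, KO over WT, for 33 of the 35 tested ABC genes (points), with 95% intervals that cover counting error only (bars), coloured by role. The solid line is 0 and the dashed lines are 0.6-fold and 1.4-fold. The intervals of Abcg5, Abcg8 and Abcc9 lie farthest below 0 among the genes with narrow intervals, and those of Abcb4 and Abcd3 hold 0.

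Among the tested canalicular transporters the sterol pair Abcg5 and Abcg8 differed most and lay below their WT levels, while Abcg2 lay slightly above its own. Of the 8 canalicular genes, 6 were tested and 5 of these lay below 0, as did 53.8% of all tested genes. None passed the fold thresholds, and the median change was -0.12. The summed level of the 8 was 812.70 TPM in KO against 872.67 TPM in WT, or 0.931 times as much.

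Abcg5 stood at 40.64 TPM in KO against 49.67 TPM in WT, a change of -0.28 (95% interval -0.38 to -0.17). Abcg8 stood at 37.56 TPM in KO against 46.26 TPM in WT, a change of -0.29 (interval -0.36 to -0.19). The pair was thus lower in KO by nearly the same factor, 0.818 for Abcg5 and 0.812 for Abcg8 as ratios of TPM, and the level of Abcg8 relative to Abcg5 was 0.924 in KO and 0.931 in WT. These values rest on 1198 and 1959 estimated reads of Abcg5 and on 1721 and 2812 of Abcg8 in KO and WT. No 100-base window of either transcript was found in another gene, but the annotated spans overlap on opposite strands, and the strand setting used for counting is not given in the sources used here.

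Abcb11, the bile salt export pump, was the most abundant canalicular transcript, at 301.85 TPM in KO against 326.90 TPM in WT, a change of -0.11 (interval -0.13 to -0.08). Abcc2, which exports bilirubin glucuronides and other conjugates into bile, stood at 204.67 TPM in KO against 224.27 TPM in WT, a change of -0.13 (-0.15 to -0.09). Both were slightly lower in KO, at 0.923 and 0.913 times their WT levels, with intervals that do not hold 0, at depths of 15066 to 29195 estimated reads per library.

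Abcb4, the floppase that delivers phosphatidylcholine to bile, was nearly equal in the libraries, at 146.30 TPM in KO against 146.85 TPM in WT (change -0.01, interval -0.04 to 0.05). It lies on chromosome 5 beside its close relatives Abcb1a and Abcb1b, the P-glycoprotein genes, within 500 kb. Abcg2, an exporter of urate and many drugs, was at 80.03 TPM in KO against 77.14 TPM in WT (change 0.05, interval -0.01 to 0.14).

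Abcb1a was at 0.69 TPM in KO against 0.76 TPM in WT, and Abcb1b at 0.96 TPM in KO against 0.82 TPM in WT. Both fell under the minimum of 1 TPM, and they share 9.23% and 6.04% of their 100-base windows with other genes, mostly with each other, so reads could be divided between them.

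Sterol exporters did not share a direction. Abca1, which loads cholesterol and phospholipid onto apolipoprotein A-I, stood at 72.81 TPM in KO against 71.30 TPM in WT (change 0.03, interval 0.003 to 0.08). Abcg1, which passes cholesterol on to formed HDL and is found mainly in macrophages and endothelium, was at 3.19 TPM in KO against 3.0 TPM in WT (change 0.07, interval -0.15 to 0.34). Abcg4, a brain homolog of Abcg1, was listed at 0.02 TPM in both libraries. Of the 4 tested sterol exporters, Abca1 and Abcg1 thus lay slightly above 0 and Abcg5 and Abcg8 below, and their median of -0.13 lies between these pairs and describes neither.

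Genes of the surrounding pathways were compared from lists of general knowledge. Of 14 tested genes of bile salt synthesis, uptake and canalicular membrane upkeep, 1 passed upward and none downward, and their median was 0.02. Of all tested genes, 1.21% passed upward and 0.301% downward. That gene was Cyp7a1, the rate-limiting enzyme of bile acid synthesis, at 66.28 TPM in KO against 32.04 TPM in WT (change 1.03). Cyp8b1, the sterol hydroxylase that sets the share of cholic acid, lay just under the threshold, at 340.09 TPM in KO against 246.30 TPM in WT (1.38-fold, change 0.46, interval 0.44 to 0.52). Lowest was Tmem30a, the chaperone subunit of the lipid flippases, at -0.14. Its canalicular partner Atp8b1 was at -0.08 and the bile salt uptake carrier Slc10a1 at 0.02. Cyp8b1, Atp8b1 and Slc10a1 were named after their values were seen. The rise of Cyp7a1 was thus measured beside a bile salt pump, Abcb11, at 0.923 times its WT level.

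Sterol handling genes other than ABC transporters mostly lay below 0, as did 53.8% of all tested genes. Of 13 tested, 10 lay below 0, none passed the thresholds, and the median was -0.11, with Lcat, which esterifies cholesterol on HDL, highest at 0.06. The counting interval lay below 0 for 7, above 0 for 3 and held 0 for 3. Of all genes, 13.4% had an interval wholly below 0 and 11.7% one wholly above it. Where the mean level reached 10 TPM, these shares were 18.8% and 14.5%. The part of read number in the count of 7 was not tested. Mylip, an LXR target that marks the LDL receptor for degradation, was at 8.09 TPM in KO against 10.59 TPM in WT (change -0.35), and Insig1, which holds SREBP in the endoplasmic reticulum, also changed by -0.35. Both were named after their values were seen.

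None of the regulators of these transporters passed the thresholds. Of 16 tested, 8 lay above and 8 below 0, and the median was 0.01, from -0.41 for Nr0b2 to 0.20 for Nr1i3, the xenobiotic receptor CAR. Nr0b2 encodes SHP, a repressor induced by FXR, and was at 44.42 TPM in KO against 59.37 TPM in WT (interval -0.55 to -0.25). FXR itself (Nr1h4) was at 84.22 TPM in KO against 76.29 TPM in WT, a change of 0.14, and LXR alpha (Nr1h3) at 67.05 TPM in KO against 62.98 TPM in WT, a change of 0.09. Gata4, a GATA factor expressed in liver, was at 7.63 TPM in KO against 6.91 TPM in WT (change 0.13, interval -0.06 to 0.36). These last 3 were named after their values were seen.

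**Figure D4:**
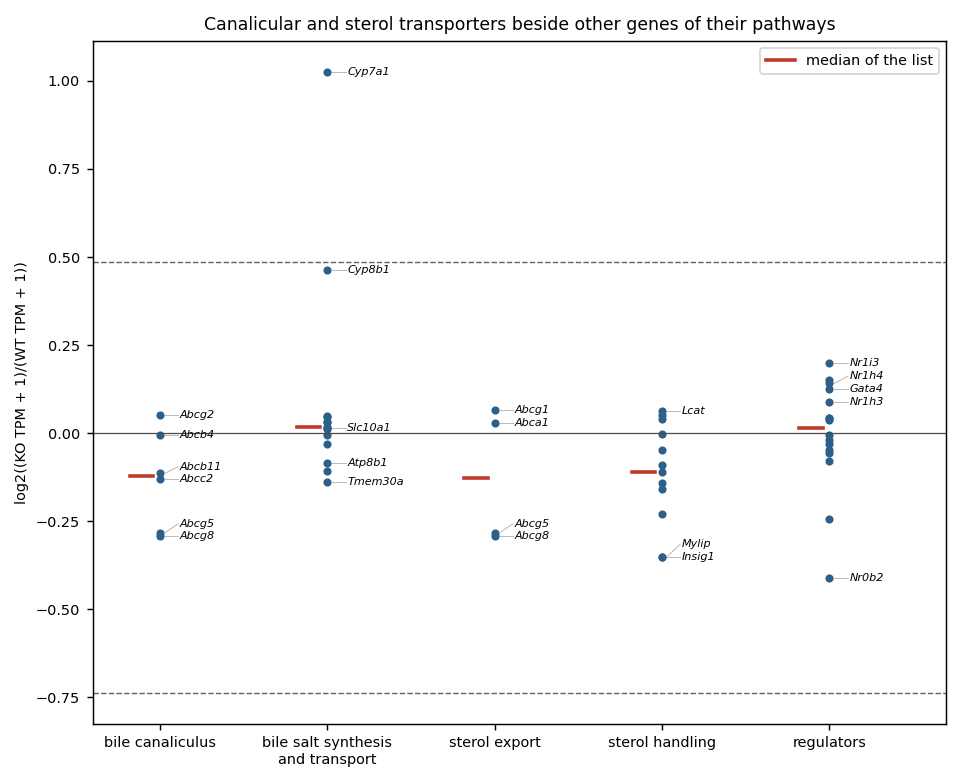
Change, log2((KO TPM + 1)/(WT TPM + 1)), of the tested genes drawn in 5 lists (points; names are given for genes named in the text), with the median over all tested genes of the list as a red bar. Dashed lines are 1.4-fold and 0.6-fold. Cyp7a1 at 1.03 is the only point outside them, Abcg5 and Abcg8, which belong to 2 of the lists, sit together near -0.29, and Nr0b2 (-0.41) is the lowest point drawn.

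Other ABCA genes, which move phospholipids and related lipids, included Abca3, the highest of them in change, and Abca7, the lowest. Of 15 genes, 8 were tested, 6 of these lay below 0 (as did 53.8% of all tested genes), and the median was -0.07. Abca3, which fills lamellar bodies with surfactant lipid in the lung, was at 25.26 TPM in KO against 22.76 TPM in WT (change 0.14, interval 0.08 to 0.24). Abca7, a phospholipid exporter, was at 2.47 TPM in KO against 2.80 TPM in WT (change -0.13, interval -0.42 to 0.08). Abca2, found in lysosomes, lay between them at 13.31 TPM in KO against 14.02 TPM in WT (change -0.07, interval -0.16 to 0.03).

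Abca5, Abca6, Abca8a, Abca8b and Abca9 form a cluster on chromosome 11, from 109932206 to 110337723 of GRCm38. Abca6 was by far the most abundant of the cluster, at 149.48 TPM in KO against 160.76 TPM in WT (change -0.10, interval -0.14 to -0.06). Its neighbours Abca8a, Abca8b, Abca9 and Abca5 changed by 0.05, -0.06, -0.03 and -0.09. The intervals of Abca8b, Abca9 and Abca5 held 0, and that of Abca8a ran from 0.006 to 0.13. A difference in direction within the cluster thus rests on Abca8a alone. The Abca8a and Abca8b transcripts, although close relatives, had no 100-base window in common.

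ABCC efflux pumps outside the canaliculus included the gene with the largest positive change among the tested members. Of 7 genes, 5 were tested, 4 lay above 0 (53.8% of all tested genes lay below it), and the median was 0.06. Abcc5, an exporter of cyclic nucleotides, was at 2.94 TPM in KO against 1.99 TPM in WT, or 1.48 times as much. On the log2(TPM + 1) scale its change was 0.40, below the threshold, and with 0.1 TPM added in place of 1 it passed. The ratio of the authors' means was only 1.26 (log2 interval 0.02 to 0.66, on 161 and 172 estimated reads), so the deposited tables differed for this gene by 0.22 in log2 ratio. For the other 34 genes the tables differed by at most 0.032, and the direction was the same in both tables for 34 of the 35, Abcb4 being the exception.

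Abcc3, which returns conjugated bile salts and bilirubin to blood across the basolateral membrane, was at 122.84 TPM in KO against 120.08 TPM in WT (change 0.03, interval 0.003 to 0.09). Abcc6, which supports the release of ATP from hepatocytes and thereby limits calcification, was at 60.37 TPM in KO against 57.72 TPM in WT (change 0.06, interval 0.02 to 0.14). Abcc10, a relative with drug substrates, was at 3.25 TPM in KO against 2.80 TPM in WT (change 0.16, interval -0.03 to 0.50). Abcc4, a basolateral exporter of bile salts and cyclic nucleotides, was lowest at 1.15 TPM in KO against 1.45 TPM in WT (change -0.19, interval -0.77 to 0.03). Within the ABCC pumps, the canalicular Abcc2 therefore lay below 0 and the basolateral Abcc3 slightly above it, and the level of Abcc2 relative to Abcc3 was 1.67 in KO and 1.87 in WT.

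Abcc9 had the lowest change of all tested members. It encodes SUR2, the regulatory subunit that surrounds the Kir6.1 pore of ATP-sensitive potassium channels in vascular smooth muscle and pericytes. Abcc9 was at 11.66 TPM in KO against 14.94 TPM in WT, a change of -0.33 (interval -0.45 to -0.24, on 1180 and 2030 estimated reads). Kcnj8, the gene of the pore, was at 1.83 TPM in KO against 2.53 TPM in WT (change -0.32, interval -0.98 to 0.04). Kcnj8 is also one of the 7 markers listed for stellate and mural cells. Of these 7, 6 were tested, 4 lay below 0 (3 of 5 without Kcnj8), beside 53.8% of all tested genes, none passed the thresholds, and the median was -0.21, from -0.53 for Rgs5 to 0.17 for Lrat. The summed level of the 7 was 59.75 TPM in KO against 68.79 TPM in WT, with Cspg4 near 0 (0.02 TPM in KO against 0.08 TPM in WT). In bulk liver, fewer cells of a type and less RNA per cell cannot be told apart, and the part of these markers in the value of Abcc9 was not tested. Abcc8, the SUR1 subunit of pancreatic beta cells, was listed at 0.01 TPM in both libraries.

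Markers of other cells of the liver lay on different sides of 0. Of 5 macrophage markers listed, 4 were measured and tested. All 4 lay above 0, while 53.8% of all tested genes lay below it. Their median was 0.17, and their summed level was 193.60 TPM in KO against 172.16 TPM in WT. All 5 endothelial markers lay below 0, as did 53.8% of all tested genes, with a median of -0.10. Their sum was 120.62 TPM in KO against 135.00 TPM in WT. The counting interval held 0 for 3 of the endothelial markers and for 1 of the tested macrophage markers. Of 4 tested cholangiocyte markers 3 lay below 0, with a median of -0.12 and a sum over all 5 of 61.96 TPM in KO against 66.85 TPM in WT, most of it Spp1. For 3 of the 4 the interval held 0. Their part in the values of Abcg1, Abca1 and other genes expressed outside hepatocytes was not tested.

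Mitochondrial ABC transporters, which serve heme and iron-sulfur metabolism, were close to their WT levels. All 4 were tested, 3 lay above 0 (53.8% of all tested genes lay below it), and the median was 0.04. Abcb6, a porphyrin transporter, was highest at 43.53 TPM in KO against 40.02 TPM in WT (change 0.12, interval 0.04 to 0.23). It shares 45.2% of its 100-base windows with the predicted gene Gm29253, so its reads could be divided. Abcb10, which supports heme synthesis, was lowest at 17.53 TPM in KO against 17.81 TPM in WT (change -0.02, interval -0.13 to 0.11). Abcb8 lay between them, at 0.07.

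The 4 tested peroxisomal and lysosomal members lay below 0, as did 53.8% of all tested genes. Abcd3, which brings bile acid precursors and branched fatty acids into peroxisomes, was the most abundant of all ABC transcripts, at 366.28 TPM in KO against 373.62 TPM in WT (change -0.03, interval -0.05 to 0.01). Abcd4, needed for the release of cobalamin from lysosomes, was lowest at 5.12 TPM in KO against 6.27 TPM in WT (change -0.25, interval -0.57 to -0.003, on 169 and 278 estimated reads). Abcd2, an importer of very long chain fatty acids, changed by -0.08 with an interval that holds 0. The median of the 4 tested genes of this group was -0.08, and Abcb9, a lysosomal peptide transporter, was under the minimum, at 0.67 TPM in KO against 0.59 TPM in WT.

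Ribosome-associated members mostly lay below 0, as did 53.8% of all tested genes. Abcf3, related to yeast GCN20, was at 19.84 TPM in KO against 23.43 TPM in WT (change -0.23, interval -0.35 to -0.11), and Abcf2 at 22.58 TPM in KO against 25.25 TPM in WT (change -0.15, interval -0.28 to -0.01). Abce1, the ribosome recycling factor, changed by -0.09. Abcf1, an initiation factor partner, was highest at 31.13 TPM in KO against 30.18 TPM in WT (change 0.04, interval -0.05 to 0.16). The median of the 4 was -0.12. Abcf3 and Abcc5 lie within 500 kb of each other on chromosome 16 and were on opposite sides of 0, unlike Abcg5 and Abcg8.

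Among the 15 genes under the minimum, the highest single value was 0.96 TPM, and 11 were under 0.2 TPM in both libraries. Those 11 were Abca4, Abca12, Abca13, Abca14, Abca15, Abca16, Abca17, Abcb5, Abcc8, Abcc12 and Abcg4, known from retina, skin, testis, pancreas, brain and other tissues. The second deposited table does not list 7 of them. Abcc12, at 0.08 TPM in KO against 0.18 TPM in WT, rested on 4 and 14 estimated reads (interval -3.43 to 0.30), and the values of Abca13 were 0.02 TPM in KO and 0 in WT, with 3 estimated reads in KO. No difference was detectable at this depth for these genes. Abcg3, a rodent gene whose substrate is not established, was just above the minimum, at 2.28 TPM in KO against 2.43 TPM in WT (change -0.06, interval -0.48 to 0.32).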

How the data were processed

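RNA of each genotype was pooled and made into 1 stranded library. The authors aligned paired reads to mm10 with RSEM 1.2.09 and Bowtie (base calls by CASAVA 1.8.2), which shares reads that match several genes, and deposited posterior mean TPM; its total is 1005325 for KO and 994702 for WT. The authors' second deposited table (EBSeq, 16318 genes) gives a signal for each library, obtained by dividing estimated reads by a size factor; its most frequent value above 0, 1.16 in KO and 0.860 in WT, was taken as 1 read. Its columns C1 and C2 were taken as KO and WT from the order in the table's title and the paper's naming of the same values. Its fold changes and posterior probabilities are the authors' own comparison and were not used. Intervals use reads rounded to whole numbers. The fold thresholds are those in the notes of the study's tables, set here on TPM + 1. With 1 library per genotype no test was run. The members and the gene lists were chosen with earlier results of these data known. Genes named were all canalicular and sterol transporters, those past the thresholds, the 5 highest and lowest changes, the 5 highest levels, the extremes of each group and Pgrmc1; the others, among them neighbours in a cluster, the remaining members of small groups and members under the minimum, were chosen after their values were seen. Motifs were chosen after the members' values were seen. Shared 100-base windows were computed from GENCODE M21 transcripts; all 50 genes had a RefSeq position. The intervals were tried on simulated libraries that hold counting error only, so this check does not bear on differences between mice. Python 3.11.15 was used with scipy 1.17.1, pandas 2.3.3, matplotlib 3.10.9 and numpy 2.4.6. The alternatives were other pseudocounts, minimums, thresholds and scalings. A few genes are counted in the totals and medians but not reported here by name.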

Additional observations from a re-analysis of the deposited data

How the results depend on the processing

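No paired analysis was possible because there are no replicates to pair. With 0.1 TPM added in place of 1, 1 ABC gene (Abcc5) passed upward in place of 0; with 1.2-fold and its mirror, 1 passed upward and 3 downward. With the authors' means, after centring on the median gene, with a minimum of 10 TPM or none, with 2-fold and 0.5-fold, and with 1.4-fold and its mirror, both counts stayed at 0. Pgrmc1 changed by -10.25 when 0.1 TPM was added and by -10.44 in the authors' means. The sterol exporter median was -0.28 with a minimum of 10 TPM, which leaves out Abcg1, and 0 with no minimum, which adds Abcg4; that of Abcc8 and Abcc9 was -0.17 with no minimum, which adds Abcc8. Of 105 values of single genes, 0 moved beyond their counting error and 2 changed sign, both of Abcb4. These settings reuse the same reads, and centring shifts every gene by the same small amount, so large moves were unlikely from the start. Few reads limit low genes such as Abcc4, and pooling limits the abundant ones.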
